A study of Mus musculus with 9 samples.

Results

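The transcripts of 10 genes that act in, or inhibit, the uptake of fatty acids from circulating lipoproteins into the heart were followed across birth. They are *Lpl*, *Gpihbp1*, *Angptl4*, *Vldlr*, *Cd36*, *Slc27a1*, *Acsl1*, *Fabp3*, *Fabp4* and *Fabp5*. The genes were chosen by symbol for their known roles, with earlier results of these data known. All 10 were found among the 48820 genes of the table and among the 13618 genes that were tested. Whole hearts of untreated wild-type C57BL/6J mice, labelled male, were sequenced at embryonic day 18.5 (E18.5d), postnatal day 1 (P1d) and postnatal day 7 (P7d), with 3 hearts per stage. The series was made to compare the heart transcriptome before and after birth. Neither a transgene nor a treatment was involved at any stage, and each column of the table is named as 1 biological replicate.

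As background, triglycerides travel in chylomicrons and very low density lipoproteins and are split at the capillary wall by lipoprotein lipase (LPL), which heart muscle cells secrete. GPIHBP1 carries the enzyme across the endothelium and holds it on the luminal side, and ANGPTL4 inactivates it. The released fatty acids cross the membrane with the help of CD36, are bound in the cytosol by fatty acid binding proteins (FABPs) and are activated to acyl-CoA by ACSL1 and by the transport protein encoded by *Slc27a1*. The heart before birth relies mainly on glucose and lactate, and the suckling heart receives a diet rich in fat.

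Values are FPKM (fragments scaled to gene length and library size), and the gene lengths that were used are not given. The merged exons of a gene, with which the depth below was read, come to 823 bases for *Fabp3*, 3567 for *Fabp5* and 4489 for *Fabp4*. Levels of different genes, and the level of a ratio of 2 genes, depend on the lengths used. Fold changes of 1 gene or of 1 ratio between hearts do not, if the same lengths were used in each heart. The depth fit took 288 to 320 bases off the length, a number that differed between hearts. Such a difference weighs most on short genes such as *Fabp3*. The depth read from the steps between low values was 25000000 to 43500000 fragments per heart. Log2 changes come from limma on log2(FPKM + 1), a scale that understates the change of genes near 1 FPKM, and a gene was called at an adjusted p of at most 0.05. The limma p-values set each change against a spread pooled over the 3 stages and drawn toward that of genes of similar level. They speak of these hearts only. *Xist*, the transcript that silences 1 X chromosome in females, reached 58.0 to 97.0 FPKM in 4 hearts (E18.5d hearts 1 and 3, P7d hearts 2 and 3), and the 4 Y-linked genes examined were at 0 in them. In the other 5 hearts, *Xist* was at 0.02 to 0.11 FPKM and the Y-linked genes were at 9.74 to 40.9 FPKM, so 4 of the 9 hearts went against the label male. The airway secretoglobins *Scgb1a1*, *Scgb3a1* and *Scgb3a2* summed to 90.3 to 492 FPKM in 3 hearts (E18.5d hearts 1 and 2, P1d heart 1) and to at most 3.13 FPKM in the other 6. The 8 cardiomyocyte markers had median sums of 17695, 18979 and 18892 FPKM at the 3 stages.

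From E18.5d to P1d, 8 of the 10 genes rose, *Fabp5* fell, and *Vldlr* was not called. Of all genes tested, 18.4% were called higher and 27.6% lower in this comparison (46.0% in either direction). The largest rises were those of *Angptl4* and *Slc27a1*. From P1d to P7d, *Fabp3* and *Vldlr* rose, *Cd36*, *Slc27a1*, *Fabp4* and *Fabp5* fell, and *Lpl*, *Gpihbp1*, *Angptl4* and *Acsl1* were not called, against a background of 15.5% higher and 28.6% lower (44.2% in either direction). At P7d against E18.5d, 9 genes were higher and *Fabp5* was lower, while 12.5% of all genes tested were higher and 36.9% lower (49.4% in either direction). Hearts of the 2 stages did not overlap for 9 genes at P1d against E18.5d (8 higher, 1 lower), for 6 at P7d against P1d (2 higher, 4 lower) and for 10 at P7d against E18.5d (9 higher, 1 lower). Of all genes tested, 54.4%, 53.6% and 62.5% did not overlap (22.1%, 19.3% and 16.9% higher, 32.3%, 34.3% and 45.6% lower). With a log2 change of at least 1 also required, 6 genes were higher at P1d against E18.5d, 0 at P7d against P1d and 7 at P7d against E18.5d, and 0 were lower in each. For all genes tested these shares were 1.91%, 1.78% and 1.96% higher and 3.35%, 2.29% and 2.81% lower. The 8 genes that rose at P1d were also higher at P7d than at E18.5d, which held for 6.58% of all genes tested. The median log2 change over the 10 genes was 1.12, 0.06 and 1.27 in these 3 comparisons, where the median over all genes tested was -0.06, -0.09 and -0.17. The 3 comparisons share hearts and are not independent of each other. Together the 10 genes made up 0.458% ± 0.004, 0.981% ± 0.035 and 1.25% ± 0.04 (SD, n = 3) of the summed FPKM of protein-coding nuclear genes at the 3 stages. *Fabp3* alone made up 0.243%, 0.560% and 0.818%, so most of the rise of this sum from P1d to P7d was that of *Fabp3*.

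**Figure D1:**
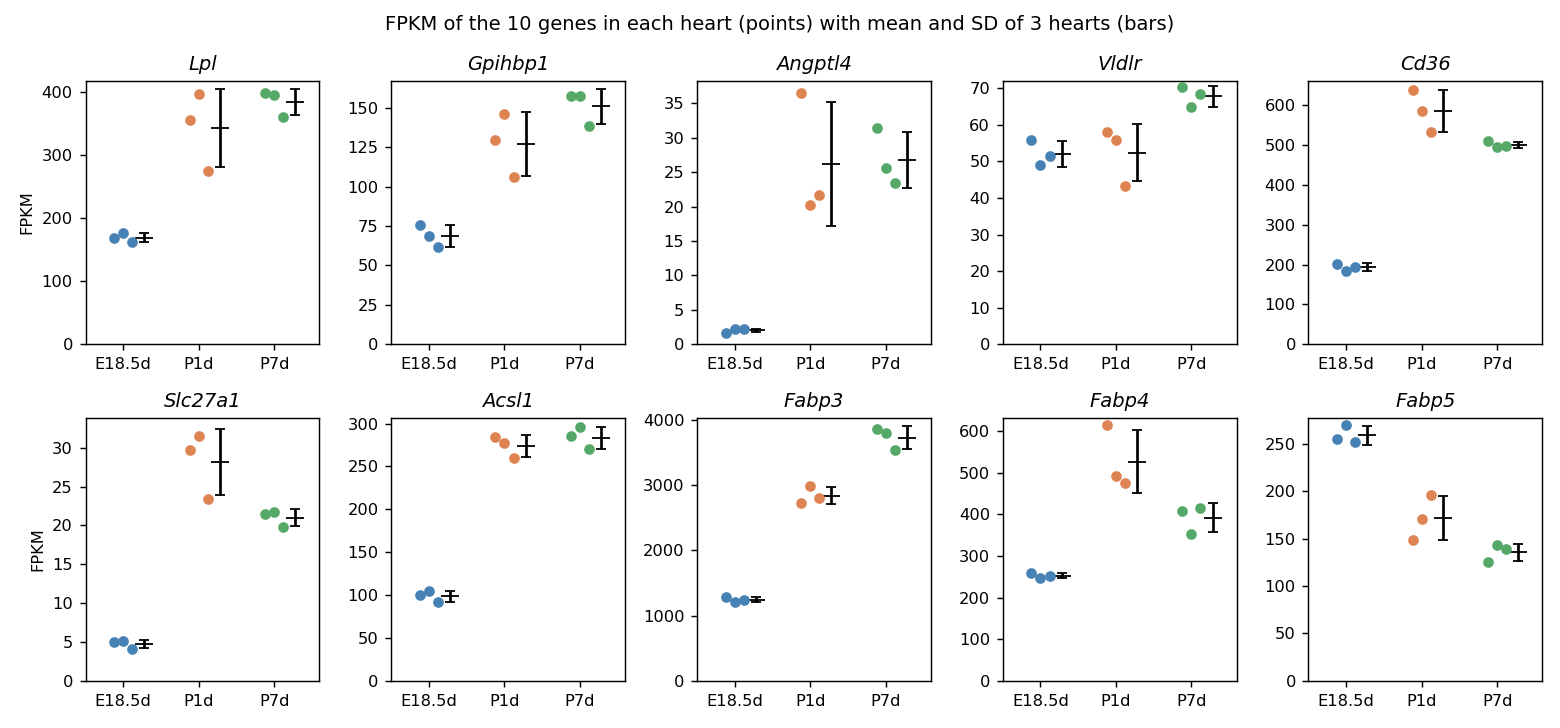
FPKM of the 10 genes in each of the 9 hearts (points, 1 color per stage) with the mean and SD of the 3 hearts of a stage (black bars), on linear axes that start at 0 and differ between panels. *Angptl4* lies at 1.69 to 2.17 FPKM in the E18.5d hearts and at 20.3 FPKM or more in the 6 others, whereas *Fabp5* is highest at E18.5d.

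Lipoprotein lipase itself is encoded by *Lpl* (chr8:68880491-68907448, GRCm38, plus strand). *Lpl* was at 168, 176 and 163 FPKM in the 3 hearts at E18.5d, at 356, 396 and 275 FPKM at P1d, and at 398, 395 and 360 FPKM at P7d. Every postnatal heart was above every E18.5d heart, and the P1d and P7d hearts overlapped. *Lpl* rose 2.02-fold from E18.5d to P1d (log2 change 1.00 ± 0.12 SE, limma adjusted p = 0.000153), and its log2 change from P1d to P7d was 0.18 (limma adjusted p = 0.240, 95% interval -0.08 to 0.44). P1d heart 3 was the lowest postnatal heart for *Lpl*, as it was for *Gpihbp1* and *Vldlr*.

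The anchor of the enzyme on capillary endothelium, *Gpihbp1* (chr15:75596628-75599481, plus strand), had the same course. It was at 75.4, 68.9 and 61.7 FPKM at E18.5d, at 129, 146 and 106 FPKM at P1d, and at 157, 157 and 138 FPKM at P7d. The E18.5d hearts were separate from all others. *Gpihbp1* rose 1.85-fold from E18.5d to P1d (log2 change 0.87 ± 0.12 SE, limma adjusted p = 0.000346) and was 2.20-fold higher at P7d than at E18.5d (log2 change 1.13, limma adjusted p = 7.24e-05). Its log2 change of 0.26 from P1d to P7d was not called (limma adjusted p = 0.107), but it was called without P1d heart 2 (log2 change 0.36, limma adjusted p = 0.0314).

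Within a heart, the ratio of *Gpihbp1* to *Lpl* does not depend on how the columns were scaled. It was 0.379 to 0.448 at E18.5d, 0.363 to 0.386 at P1d and 0.384 to 0.399 at P7d. The stages overlapped in each comparison, with differences in the mean log2 ratio of -0.12, 0.08 and -0.04 (exact two-sided permutation p = 0.2, 0.2 and 0.9, adjusted p = 0.247, 0.247 and 0.9). With 3 hearts against 3, such a test cannot go below 0.1, and the smallest p adjusted over the 42 ratio tests was 0.14, so no ratio difference could pass the threshold.

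The inhibitor *Angptl4* (chr17:33773750-33781830, minus strand) had the largest fold change among the 10 genes. Its level was 1.69, 2.17 and 2.14 FPKM at E18.5d, 36.5, 20.3 and 21.7 FPKM at P1d, and 31.4, 25.6 and 23.4 FPKM at P7d. P1d heart 1 was the highest, and the P1d and P7d hearts overlapped. Mean FPKM was 13.1-fold higher at P1d than at E18.5d (log2 change 3.13 ± 0.20 SE, limma adjusted p = 5.17e-06) and 13.4-fold higher at P7d (log2 change 3.21, limma adjusted p = 3.24e-06). Between P1d and P7d the log2 change was 0.07 (limma adjusted p = 0.793, 95% interval -0.38 to 0.52), and its sign turned without any of 3 hearts. The *Angptl4* to *Lpl* ratio within hearts had medians of 0.0123, 0.0789 and 0.0650 at the 3 stages, and the E18.5d hearts (at most 0.0131) did not overlap with the postnatal ones (at least 0.0511).

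The very low density lipoprotein receptor gene *Vldlr* (chr19:27216484-27254231, plus strand), whose product binds triglyceride-rich particles, did not follow the lipase at birth. *Vldlr* was at 55.9, 49.0 and 51.4 FPKM at E18.5d, 58.1, 55.8 and 43.4 FPKM at P1d, and 70.3, 64.8 and 68.3 FPKM at P7d. The P7d hearts lay above all others, and the E18.5d and P1d hearts overlapped. The log2 change from E18.5d to P1d was 0.00 ± 0.10 SE (limma adjusted p = 0.998), with a 95% interval of -0.23 to 0.23 that left out a change as large as that of *Lpl*. *Vldlr* rose 1.29-fold from P1d to P7d (log2 change 0.38 ± 0.10 SE, limma adjusted p = 0.0161) and was 1.30-fold higher at P7d than at E18.5d (log2 change 0.38, limma adjusted p = 0.0140). These calls were lost without P7d heart 1 (limma adjusted p = 0.0521) and without E18.5d heart 2 (limma adjusted p = 0.0536), respectively. The *Vldlr* to *Lpl* ratio had medians of 0.316, 0.158 and 0.177, with no overlap between any of the stages (exact permutation p = 0.1 each, adjusted p = 0.14).

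Fatty acid entry is represented by *Cd36* (chr5:17781690-17888801, minus strand), a membrane receptor for long-chain fatty acids. *Cd36* was at 203, 183 and 194 FPKM at E18.5d, 638, 585 and 532 FPKM at P1d, and 509, 495 and 497 FPKM at P7d. The P1d hearts were the highest and the E18.5d hearts the lowest, without overlap. *Cd36* rose 3.03-fold at P1d (log2 change 1.59 ± 0.07 SE, limma adjusted p = 1.20e-06), and 99.5% of the genes tested had a smaller log2 change. It fell by 0.22 on the log2 scale from P1d to P7d (limma adjusted p = 0.0333), a call that was lost without any one of P1d hearts 1 and 2 and P7d hearts 1, 2 and 3 (limma adjusted p = 0.0615 to 0.105) and under all other scales of the columns.

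The fatty acid transport protein gene *Slc27a1* (chr8:71568882-71587302, plus strand) encodes a membrane protein with acyl-CoA synthetase activity. It was at 4.95, 5.13 and 4.11 FPKM at E18.5d, 29.7, 31.5 and 23.4 FPKM at P1d, and 21.5, 21.8 and 19.8 FPKM at P7d. All stages were separate. *Slc27a1* rose 5.96-fold from E18.5d to P1d (log2 change 2.34 ± 0.11 SE, limma adjusted p = 1.60e-06) and stayed 4.44-fold higher at P7d than at E18.5d (log2 change 1.94, limma adjusted p = 2.19e-06). It fell by 0.40 from P1d to P7d (limma adjusted p = 0.0186), and this call was lost without P1d heart 1 (limma adjusted p = 0.0614), P1d heart 2 (limma adjusted p = 0.0591) or P7d heart 3 (limma adjusted p = 0.0644). Relative to *Cd36* in the same heart, *Slc27a1* had median ratios of 0.0244, 0.0465 and 0.0421 at the 3 stages, and the E18.5d hearts (at most 0.0280) did not overlap with the postnatal ones (at least 0.0397).

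Activation to acyl-CoA in heart muscle depends mainly on *Acsl1* (chr8:46471037-46536051, plus strand), the long-chain acyl-CoA synthetase of mitochondria and endoplasmic reticulum. *Acsl1* was at 99.7, 104 and 92.1 FPKM at E18.5d, 284, 277 and 259 FPKM at P1d, and 286, 296 and 270 FPKM at P7d. The postnatal hearts overlapped with each other and not with E18.5d. *Acsl1* rose 2.77-fold at P1d (log2 change 1.46 ± 0.07 SE, limma adjusted p = 1.09e-06), and its log2 change from P1d to P7d was 0.05 (limma adjusted p = 0.541, 95% interval -0.09 to 0.20). The *Acsl1* to *Cd36* ratio was 0.476 to 0.570 at E18.5d, 0.445 to 0.487 at P1d and 0.543 to 0.598 at P7d. It separated P1d from P7d (difference in log2 ratio 0.27, exact permutation p = 0.1, adjusted p = 0.14) but not E18.5d from either stage.

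The 3 genes *Slc27a1*, *Acsl1* and *Vldlr* are shown with the 250 bases before their first RefSeq start (GRCm38.p6, 5′ to 3′ on the gene's strand), since *Slc27a1* and *Acsl1* rose at P1d and *Vldlr* was not called. Capitals mark GGGCGG, the GC box bound by Sp1-type factors. The windows are chr8:46470787-46471036 for *Acsl1*, chr8:71568621-71568870 for *Slc27a1* and chr19:27216234-27216483 for *Vldlr*, all on the plus strand.
Acsl1: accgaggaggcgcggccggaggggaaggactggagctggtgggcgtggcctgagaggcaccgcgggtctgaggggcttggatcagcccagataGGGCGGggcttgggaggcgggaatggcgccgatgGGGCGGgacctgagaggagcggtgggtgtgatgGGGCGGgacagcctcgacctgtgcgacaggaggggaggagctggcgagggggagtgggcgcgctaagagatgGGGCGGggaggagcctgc
Slc27a1: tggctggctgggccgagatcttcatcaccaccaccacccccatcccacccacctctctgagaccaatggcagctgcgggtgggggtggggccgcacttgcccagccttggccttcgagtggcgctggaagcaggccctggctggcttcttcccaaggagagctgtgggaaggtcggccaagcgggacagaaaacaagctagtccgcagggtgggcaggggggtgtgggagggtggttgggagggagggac
Vldlr: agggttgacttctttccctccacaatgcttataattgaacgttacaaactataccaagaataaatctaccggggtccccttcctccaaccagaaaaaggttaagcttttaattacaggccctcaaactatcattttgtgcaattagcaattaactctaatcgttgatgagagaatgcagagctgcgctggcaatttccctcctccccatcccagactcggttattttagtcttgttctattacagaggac
The *Acsl1* window held 4 GC boxes, at bases -157, -123, -90 and -18 from the start, and had a GC content of 72.0%. The *Slc27a1* window, with 66.4% GC, and the *Vldlr* window, with 41.6% GC, held none. The motif was searched on both strands and was present in 32.7% of 32851 RefSeq windows of the same length, whose median GC content was 52.4%. RefSeq windows matched 5 of the 10 genes (*Cd36*, *Fabp3*, *Slc27a1*, *Vldlr* and *Acsl1*), and no window was matched for *Lpl*, *Gpihbp1*, *Angptl4*, *Fabp4* and *Fabp5*. The windows of later RefSeq starts differed from these: 2 further starts of *Slc27a1* had 1 and 3 GC boxes, a further start of *Vldlr* had 1, and a further start of *Acsl1* had none, so the count depends on the start taken. TATAAA (12.4% of all windows) was in no window of the 5 matched genes, AGGTCA (14.0%) was found once, in the window of *Cd36*, and CACGTG, the E-box (6.02%), once, in that of the third start of *Slc27a1*. The bases just after the start were found in a GENCODE transcript of the gene for the windows of *Fabp3*, *Vldlr* and *Acsl1*. They were not found for the window of *Cd36* or any window of *Slc27a1*, whose starts are thus less certain. The *Cd36* window (chr5:17835897-17836146) lies inside the span of the gene. These letters describe the windows and show no binding.

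The cytosolic binding proteins did not move as 1 group. The heart type gene, *Fabp3* (chr4:130308595-130315463, plus strand), had the highest FPKM of the 10 genes at each stage. *Fabp3* was at 1281, 1214 and 1243 FPKM at E18.5d, 2729.5, 2991 and 2798 FPKM at P1d, and 3854, 3796 and 3534 FPKM at P7d. All 3 stages were separate. *Fabp3* rose 2.28-fold at P1d (log2 change 1.19 ± 0.07 SE, limma adjusted p = 3.03e-06) and a further 1.31-fold at P7d (log2 change 0.39 ± 0.07 SE, limma adjusted p = 0.00151). By mean FPKM it ranked 41, 16 and 8 of 21747 protein-coding nuclear genes at the 3 stages. A processed pseudogene, *Fabp3-ps1*, is 99.3% identical to *Fabp3* over 402 bases, and how the counting assigned fragments that match both is not known. It was at 0.414%, 0.439% and 0.412% of the *Fabp3* level at the 3 stages.

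*Fabp4* (chr3:10204088-10208576, minus strand) encodes the binding protein of adipocytes, macrophages and capillary endothelium. *Fabp4* was at 258, 247 and 253 FPKM at E18.5d, 614, 491 and 475 FPKM at P1d, and 409, 353 and 416 FPKM at P7d. The P1d hearts were the highest and no stages overlapped. *Fabp4* rose 2.08-fold at P1d (log2 change 1.05 ± 0.10 SE, limma adjusted p = 5.12e-05) and fell by 0.42 on the log2 scale from P1d to P7d (limma adjusted p = 0.00878). At P7d it was 1.55-fold higher than at E18.5d (log2 change 0.63, limma adjusted p = 0.000839).

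*Fabp5* (chr3:10012548-10016607, plus strand), which encodes a binding protein of skin, endothelium and macrophages, was the one gene of the 10 that fell at birth. *Fabp5* was at 255, 270 and 251 FPKM at E18.5d, 149, 171 and 196 FPKM at P1d, and 126, 143 and 138 FPKM at P7d. The stages did not overlap. It fell by 0.60 on the log2 scale at P1d (SE 0.09, limma adjusted p = 0.000845) and by 0.93 at P7d against E18.5d (limma adjusted p = 6.17e-05). The fall of 0.33 from P1d to P7d (limma adjusted p = 0.0188) was not called without P7d heart 1 (limma adjusted p = 0.0685). Of 5 processed pseudogenes similar to *Fabp5*, the highest value in any heart was 1.16 FPKM.

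*Fabp4* and *Fabp5* lie 196 kb apart on chromosome 3, on opposite strands, and their family members *Pmp2* and *Fabp9* lie between them. *Pmp2* was at most 0.13 FPKM and *Fabp9* at most 0.28 FPKM in any heart. The ratio of *Fabp5* to *Fabp4* was 0.988 to 1.09 at E18.5d, 0.242 to 0.412 at P1d and 0.307 to 0.405 at P7d. Every postnatal heart was below every E18.5d heart (differences in log2 ratio to E18.5d -1.65 and -1.56, exact permutation p = 0.1, adjusted p = 0.14), with overlap between P1d and P7d. Against *Fabp3*, the median ratio of *Fabp5* was 0.202, 0.0571 and 0.0376, and no stages overlapped. The ratio of *Fabp4* to *Fabp3* was 0.202 to 0.204 at E18.5d and 0.164 to 0.225 at P1d, which overlapped, and 0.0929 to 0.118 at P7d, which was separate from both.

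**Figure D2:**
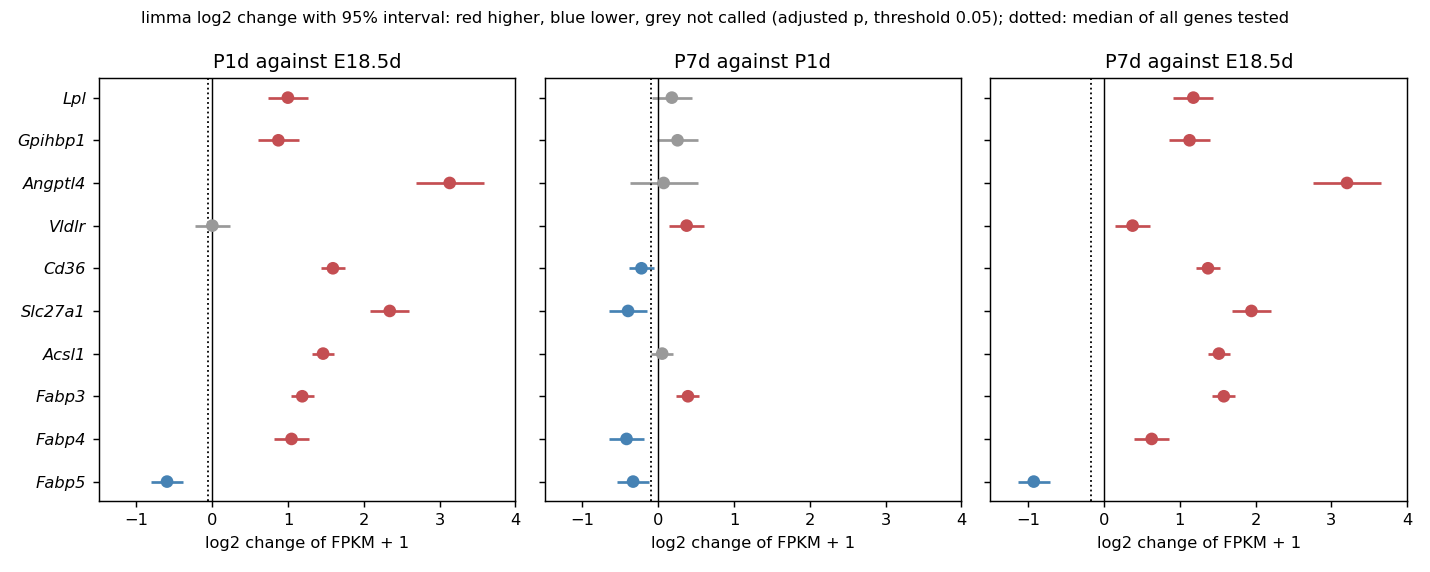
Log2 change (point) with its 95% interval (line) for each of the 10 genes in the 3 comparisons, from limma on log2(FPKM + 1). Red marks a higher call, blue a lower call and grey no call, and the dotted line marks the median of all genes tested. At P1d against E18.5d only *Vldlr* sits at 0.00, and at P7d against P1d all changes lie between -0.42 and 0.39.

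The order of the FPKM values changed with stage, and it depends on the gene lengths used in the scaling. At E18.5d, *Fabp3* was followed by *Fabp5* and *Fabp4*, which overlapped, and then by *Cd36*, *Lpl*, *Acsl1*, *Gpihbp1*, *Vldlr*, *Slc27a1* and *Angptl4*, which were separate. At P1d, *Fabp3* was followed by *Cd36* and *Fabp4*, which overlapped, *Lpl* and *Acsl1*, which overlapped, *Fabp5*, *Gpihbp1*, *Vldlr*, and last *Slc27a1* and *Angptl4*, which overlapped. At P7d, the order was *Fabp3*, *Cd36*, *Fabp4* and *Lpl*, which overlapped, *Acsl1*, *Gpihbp1* and *Fabp5*, which overlapped, *Vldlr*, *Angptl4* and *Slc27a1*. At P7d the lowest heart for *Slc27a1* was at 19.8 FPKM and the mean of *Fabp3* was 3728 FPKM.

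The members were also set against their own families, which were chosen after the values were seen. *Acsl1* made up 56.3% ± 0.9 (SD, n = 3) of the summed FPKM of 5 *Acsl* genes at E18.5d, 82.4% ± 3.0 at P1d and 88.6% to 91.0% in the hearts at P7d. *Acsl3*, the second of the family, fell between E18.5d (52.0 ± 3.4 FPKM) and P7d (16.0 ± 2.7 FPKM) (log2 change -1.65, limma adjusted p = 2.84e-05). *Slc27a1* made up 28.2% ± 1.4, 72.7% ± 2.2 and 65.1% ± 1.4 of 6 *Slc27* genes, and *Slc27a4*, the leading member at E18.5d, was at 8.79, 8.02 and 8.64 FPKM and was not called in any comparison. Of 8 *Fabp* family genes, *Fabp3* made up 70.7% ± 0.7, 80.2% ± 1.9 and 87.5% ± 1.0, and *Fabp5* 14.7% ± 0.7, 4.86% ± 0.70 and 3.19% ± 0.29. These shares do not depend on the scale of the columns, but their size depends on the gene lengths used in the scaling.

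**Figure D3:**
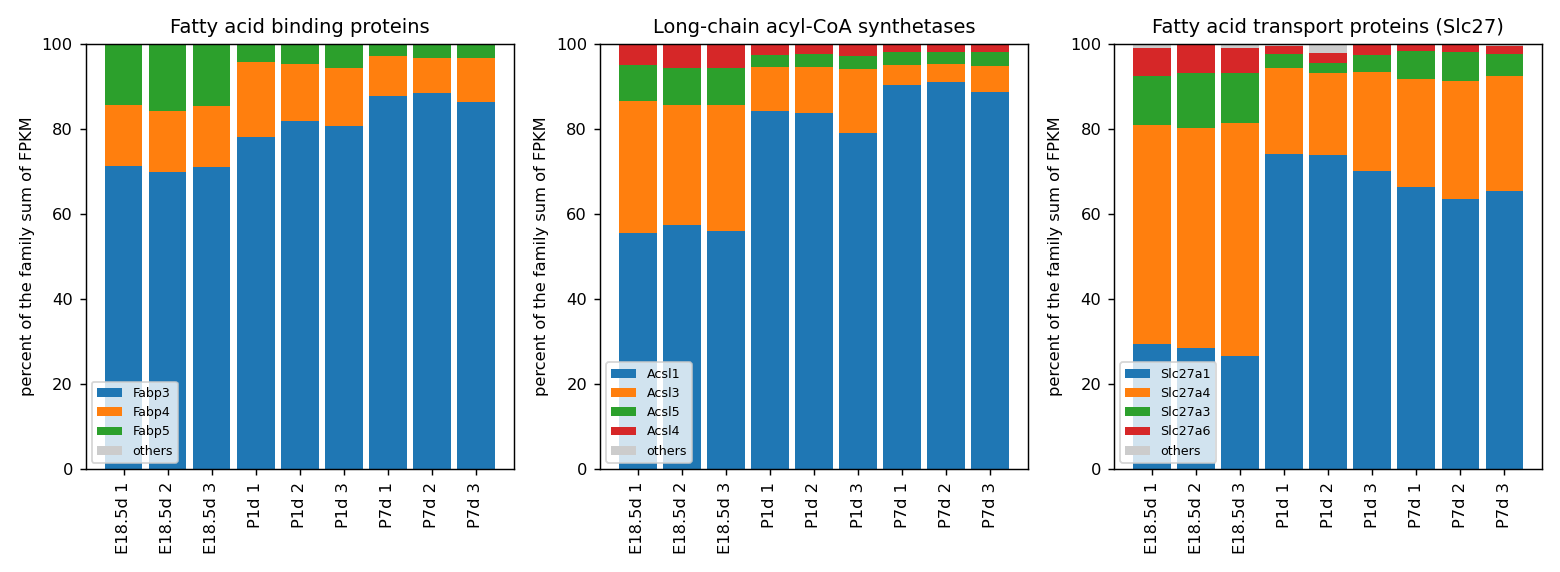
Percent of the summed FPKM of 3 gene families in each of the 9 hearts (stacked bars, 1 color per gene, genes with a mean share under 1% joined as others). *Acsl1* goes from 56.3% of its family at E18.5d to 82.4% at P1d, *Slc27a1* from 28.2% to 72.7% at P1d and 65.1% at P7d, and *Fabp3* from 70.7% to 87.5%.

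Further genes that act on lipoproteins (16, with 8 tested) were counted with the same calls. From E18.5d to P1d, 6 rose and 1 fell (background 18.4% and 27.6%), with a median log2 change of 0.41 over those tested. On the log2(FPKM + 1) scale the largest rises were those of *Apoc1*, an apolipoprotein that hinders lipoprotein clearance, from 6.06 to 11.6 FPKM (limma adjusted p = 0.00497), of the HDL receptor gene *Scarb1* from 19.1 to 28.3 FPKM (limma adjusted p = 0.000497) and of *Apoe*, a ligand of lipoprotein receptors, from 392 to 561 FPKM (limma adjusted p = 0.00245). By mean FPKM, *Lsr* rose more (1.63-fold, from 1.72 to 2.79 FPKM, limma adjusted p = 0.00374) than *Scarb1* (1.48-fold) and *Apoe* (1.43-fold). From P1d to P7d, limma called 0 higher, also at an unadjusted p under 0.05, and 5 lower, where 15.5% of all genes tested were higher and 28.6% lower. The 5 that fell were *Apoc1* (to 1.35 FPKM), the lipoprotein receptor gene *Lsr* (to 1.17 FPKM), *Apoe* (to 401 FPKM) and, named after their values were seen, *Scarb1* and *Sel1l*. At P7d against E18.5d, 2 were higher, *Lrp1* (62.7 against 44.0 FPKM) and *Scarb1* (23.2 against 19.1 FPKM), and 3 were lower, among them *Apoc1* and *Lsr*. In that comparison 12.5% of all genes tested were higher and 36.9% lower. Of the 8 not tested, *Lrp8* had the highest stage mean, 1.12 FPKM at E18.5d. It was followed by *Apoc2*, the cofactor of LPL, at 0.470, 0.770 and 0.227 FPKM. *Apoe* and *Apoc1* are also made by macrophages and liver. Of 7 macrophage markers, limma called 5 higher and 0 lower at P1d against E18.5d (18.4% and 27.6% of all genes tested). At P7d against P1d, 1 was called higher and 2 lower (15.5% and 28.6% of all genes tested). The 5 liver markers summed to 30.5 FPKM in P1d heart 2, where the P1d median was 2.78 FPKM, and *Apoe* was highest in that heart (636 FPKM) while *Apoc1* was highest in P1d heart 1 (15.4 FPKM). The part of these cells in the lipoprotein list was not tested.

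Among 23 further genes of fatty acid transport, binding and activation, 14 were tested. Of them, 3, 3 and 0 were called higher at P1d against E18.5d, P7d against P1d and P7d against E18.5d (18.4%, 15.5% and 12.5% of all genes tested), and 4, 6 and 5 lower (27.6%, 28.6% and 36.9%). From E18.5d to P1d, the 3 that rose were *Zdhhc4*, an enzyme that palmitoylates CD36 (16.1 to 22.7 FPKM), the muscle caveolin *Cav3* (75.2 to 97.8 FPKM) and *Got2*, the mitochondrial aspartate aminotransferase (267 FPKM at E18.5d, log2 change 0.17). In the same comparison the 4 that fell were *Acsl5* (15.1 to 9.78 FPKM), *Slc27a3* (2.01 to 1.23 FPKM), *Cav2* (12.3 to 9.65 FPKM) and, named after its values were seen, *Cav1*. From P1d to P7d, *Cav2*, *Slc27a3* and *Cavin1* rose and 6 fell. On the log2(FPKM + 1) scale *Acsl3*, *Fabp7* (2.31 to 0.977 FPKM) and *Cav3* (to 69.2 FPKM) fell the most, whereas by mean FPKM *Acsl4* fell slightly more than *Cav3* (to 0.695 and 0.707 of its P1d level). At P7d against E18.5d, limma called 0 higher (2 at an unadjusted p under 0.05) and 5 lower (*Acsl3*, *Fabp7*, *Acsl5* and, named after their values were seen, *Acsl4* and *Dbi*). The median log2 changes were -0.14, -0.04 and -0.08, close to those of all genes tested.

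Of 8 genes that regulate fatty acid transport by the endothelium, all were tested. At P1d against E18.5d, *Pparg*, a nuclear receptor that induces *Fabp4* in adipocytes, rose from 2.94 to 5.38 FPKM (limma adjusted p = 0.00602) and 5 fell, where 18.4% of all genes tested were higher and 27.6% lower. These were the peptide gene *Apln* (8.84 to 2.99 FPKM, limma adjusted p = 0.000394), the transcription factor gene *Meox2* (6.03 to 2.97 FPKM, limma adjusted p = 0.000552), the VEGF receptor gene *Flt1* (22.1 to 14.6 FPKM, limma adjusted p = 0.000123) and, named after their values were seen, *Vegfb* and *Nrp1*. From P1d to P7d, 7 rose (15.5% of all genes tested) and *Pparg* fell to 3.56 FPKM (limma adjusted p = 0.0360), with 28.6% of all genes tested lower. *Apln* reached 15.5 FPKM, its receptor gene *Aplnr* went from 22.3 to 59.2 FPKM, and *Meox2* reached 8.29 FPKM. *Aplnr*, *Tcf15*, *Apln* and *Meox2* were higher at P7d than at E18.5d (12.5% of all genes tested), and *Flt1* was lower (36.9%). In contrast to most of the 10 genes, *Apln*, *Meox2*, *Flt1*, *Vegfb* and *Nrp1* were lowest at P1d.

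In whole hearts, a change in the number of cells of a type and in the RNA per cell cannot be told apart. The summed FPKM of 8 endothelial markers was 447 to 482 at E18.5d, 525 to 577 at P1d and 587 to 610 at P7d, and none of the markers was at 0 in every heart. Relative to this sum in the same heart, *Gpihbp1* had median ratios of 0.147, 0.241 and 0.258, and *Fabp4* of 0.536, 0.904 and 0.671. The medians of *Cd36* were 0.421, 1.01 and 0.836 (at least 0.827 in every postnatal heart), and its P1d hearts lay above its P7d hearts. For all 3 genes the E18.5d hearts stayed under every postnatal heart (exact permutation p = 0.1, adjusted p = 0.14). Against the sum of 8 cardiomyocyte markers, the median ratio of *Fabp3* was 0.0703, 0.144 and 0.195, that of *Acsl1* was 0.00546, 0.0150 and 0.0151, and that of *Lpl* was 0.00929, 0.0188 and 0.0203. The E18.5d hearts were again under every postnatal heart for these genes. Neither set of markers was constant. Of the 8 endothelial markers, limma called 3 higher and 1 lower at P1d against E18.5d (median log2 change 0.16). At P7d against P1d, 2 were higher and 1 lower (15.5% and 28.6% of all genes tested). At P7d against E18.5d, 6 were higher and 1 lower, with a median of 0.40. Of the 8 cardiomyocyte markers, limma called 4 higher and 0 lower at P1d against E18.5d (18.4% and 27.6% of all genes tested), with a median log2 change of 0.19. At P7d against E18.5d, 5 were higher and 1 lower (12.5% and 36.9% of all genes tested), with a median of 0.49.

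Markers of other cells that make these transcripts also moved. The 9 adipocyte markers summed to 6.22 to 7.92 FPKM at E18.5d, a median of 27.5 FPKM at P1d and 34.4 to 39.9 FPKM at P7d, most of it *Cidea*, which had means of 6.71, 22.3 and 26.7 FPKM. Of the 3 adipocyte markers tested, limma called 2 higher at P1d and 3 higher at P7d against E18.5d (18.4% and 12.5% of all genes tested). At P7d against P1d, 1 was called higher and 1 lower (15.5% and 28.6% of all genes tested). *Ucp1*, the uncoupling protein of brown fat, had means of 0, 0.453 and 6.62 FPKM. It reached the filter mean of 1 FPKM only through its P7d hearts, so its higher call there was favored by the filter. The defining gene *Adipoq* had means of 0.267, 2.37 and 0.947 FPKM and reached the filter only through its P1d hearts. The counts of adipocyte markers called therefore carry little weight against the shares of all genes tested. Among the 6 markers not tested, *Plin1* had means of 0.08, 0.933 and 1.36 FPKM, *Cidec* 0.02, 0.633 and 0.503 FPKM and *Cfd* 0, 0.617 and 0.317 FPKM, each without overlap between E18.5d and the later stages, and *Lep* stayed under 0.02 FPKM in the mean of each stage. The 7 macrophage markers summed to 62.0 to 77.4, 87.1 to 127 and 82.3 to 86.8 FPKM. The part of these cells in the values of *Fabp4*, *Lpl* and *Cd36* was not tested. The 4 keratinocyte markers, of cells rich in *Fabp5*, summed to at most 3.06 FPKM in every heart.

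**Figure D4:**
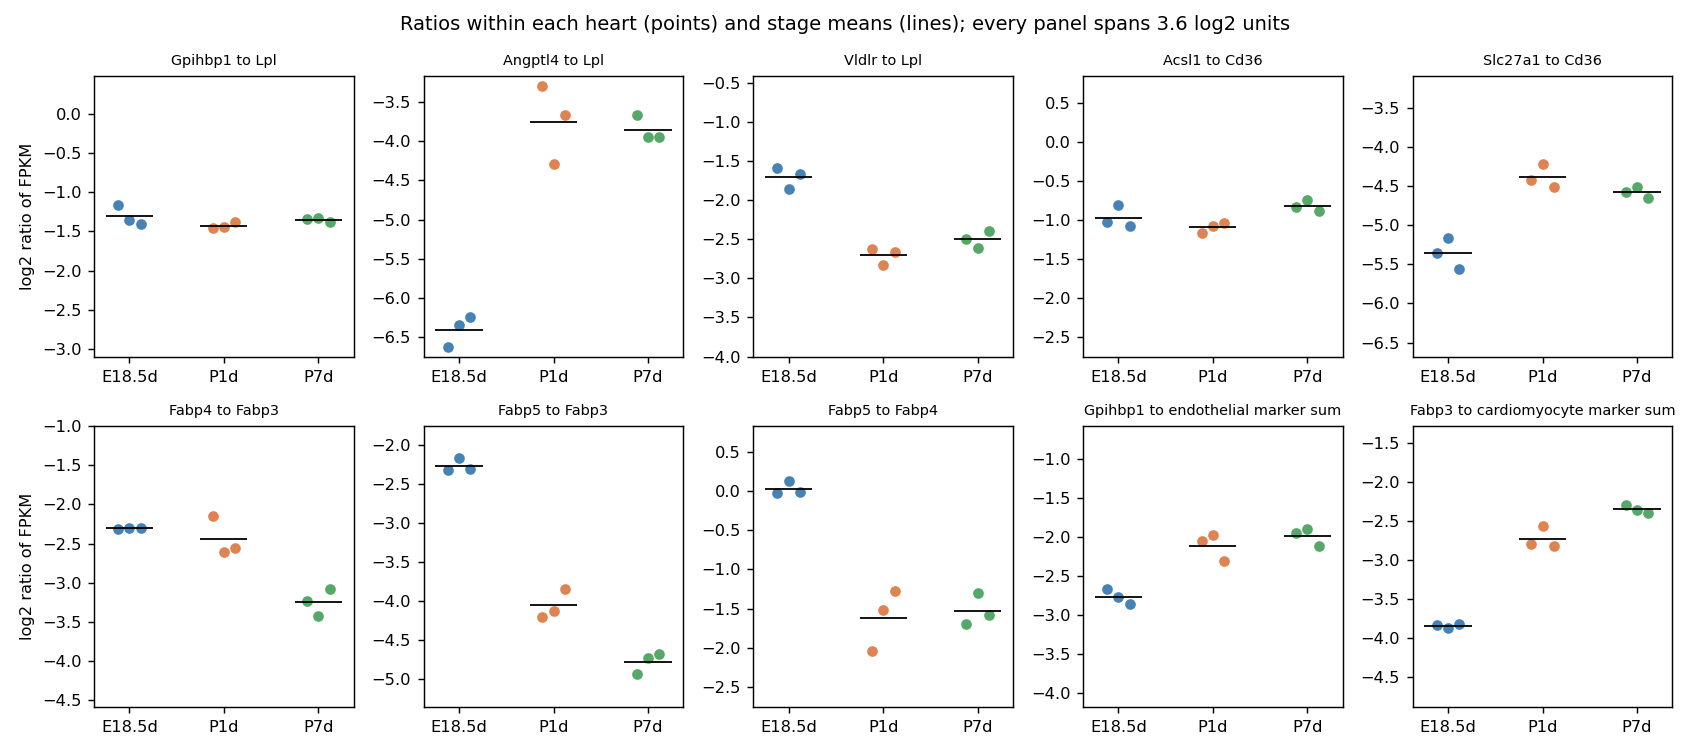
Log2 of 10 within-heart ratios of FPKM in each heart (points) with the mean of each stage (lines), every panel spanning the same number of log2 units. *Gpihbp1* to *Lpl* stays level (medians 0.390, 0.369 and 0.395), whereas the *Angptl4* to *Lpl* ratio is higher and the *Vldlr* to *Lpl* and *Fabp5* to *Fabp3* ratios are lower in every postnatal heart than at E18.5d.

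The genes whose course was most like that of each member were named by the smallest root mean square difference of centered log2(FPKM + 1) over the 9 hearts, among 9078 genes. *Lpl* and *Gpihbp1* were among the 3 nearest of each other (0.08 log2 units), and *Ephx2*, a soluble epoxide hydrolase, was the nearest to both (0.05 and 0.06). *Cd36* was the third nearest to *Acsl1* (0.14), and *Slc25a20*, the mitochondrial carnitine-acylcarnitine carrier, was the second nearest to both *Cd36* and *Acsl1* (0.11 each), going from 32.5 to 91.3 and 85.7 FPKM. For *Cd36* the nearest was the noncoding *Gm44386* and the third *Adra1b*, for *Acsl1* the nearest was *Hsdl2*, and *Cldn5* and *Lpin1* were the third for *Lpl* and *Gpihbp1*. *Fabp3* was nearest to *Acadvl* (0.04), the very long chain acyl-CoA dehydrogenase, which went from 130 to 302 and 387 FPKM, and then to *Decr1* and *Vwa8*. *Angptl4* was nearest to *Pdk4* (0.21), the kinase that inhibits pyruvate dehydrogenase, which had means of 11.5, 139.7 and 128 FPKM, and then to *Scd4* and *Slc25a34*. *Slc27a1* was nearest to *Acot2*, *Lipe* and *Mlycd* (0.15 to 0.16), which act on acyl-CoA, triglycerides and malonyl-CoA. *Fabp4* was nearest to *Dsg2*, *Srsf5* and *Impa2*, *Fabp5* to *Cox20*, *Kif26b* and *Cox8a*, and *Vldlr* to *Cerk*, *C1qtnf6* and *Tmem204*. All these distances share the same 9 hearts and their depths.

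The small changes between P1d and P7d depended on how the columns were scaled. Rescaling to an equal sum, to an equal sum over protein-coding nuclear genes, by the median of ratios or by quantiles moved the median log2 change of all genes by 0.08 to 0.13 in this comparison. On these scales *Fabp3* and *Vldlr* remained called higher. The *Cd36* and *Slc27a1* falls were not called on any of them, the *Fabp4* fall was called on the median of ratios scale, and the *Fabp5* fall on the quantile scale. *Gpihbp1* and *Lpl* were called higher on 3 of the 4 and *Acsl1* on 2. The share of higher calls among all calls went from 35.1% on the deposited scale to between 50.8% and 59.6%. At P7d against E18.5d that share was 25.3% as deposited and 50.5% by the median of ratios, and at P1d against E18.5d 40.0% and 50.3% (20.0% with an equal sum). By the median of ratios, 23.2% of all genes tested were higher and 22.9% lower at P1d against E18.5d (members 8 and 1), 21.9% and 19.8% at P7d against P1d (members 3 and 1), and 21.3% and 20.9% at P7d against E18.5d (members 9 and 1). At P1d against E18.5d the calls of the 10 genes were the same on all 5 scales, and at P7d against E18.5d *Vldlr* lost its call with an equal sum (limma adjusted p = 0.0548).

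**Figure D5:**
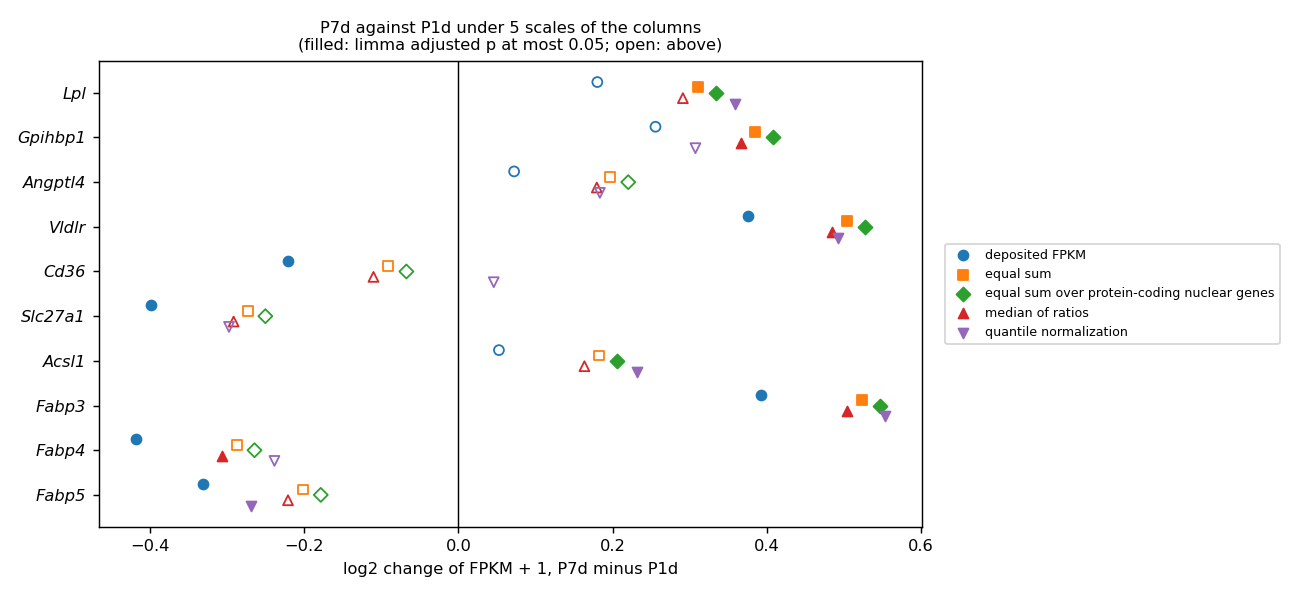
Log2 change from P1d to P7d of the 10 genes on the deposited scale and on 4 other scales of the columns (symbols), filled where the limma adjusted p was at most 0.05. *Fabp3* and *Vldlr* are filled on every scale, whereas *Cd36* and *Slc27a1* are filled on the deposited scale alone.

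The calls were also made without the hearts that had *Xist* above 1 FPKM and without those with airway transcripts. No P1d heart had *Xist* above 1 FPKM, so *Xist* status and stage are partly mixed in the comparisons with P1d. With the 5 hearts that had *Xist* at or under 1 FPKM, which leave 1 heart each at E18.5d and P7d assumed to vary like the P1d hearts, *Cd36*, *Angptl4*, *Fabp3*, *Fabp4*, *Slc27a1* and *Acsl1* were higher at P1d than at E18.5d (log2 changes 1.08 to 3.05). *Lpl* (0.94, limma adjusted p = 0.0723), *Gpihbp1* (0.86, limma adjusted p = 0.0662) and *Fabp5* (-0.66, limma adjusted p = 0.0864) kept their direction and lost their call. At P7d against E18.5d, 5 genes were called higher in this set, and from P1d to P7d none of the 10. Without the 3 hearts with airway transcripts, an alternative chosen after the data were seen, E18.5d keeps 1 heart and P1d 2, and the lone heart is assumed to vary like those of the other stages. In that set the same 8 genes were higher at P1d (log2 changes 0.93 to 2.81), and *Fabp5* lost its call (-0.46, limma adjusted p = 0.0525). From P1d to P7d, *Fabp3* and *Vldlr* were then higher and *Fabp5* alone was lower, and at P7d against E18.5d *Vldlr* lost its call (0.39, limma adjusted p = 0.101).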

How the data were processed

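RNA-seq was performed on 9 hearts of C57BL/6J mice, 3 each at E18.5d, P1d and P7d. Per the labels, total RNA was extracted with Trizol and 2 µg per sample entered libraries made with an NEBNext Ultra RNA kit. The values are FPKM that the authors deposited in 1 table, a column per heart, with 2 decimals. Their processing notes name STAR and GRCm38 (mm10), and the counting tool, annotation and strand setting are not given in the sources used here. FPKM are scaled to library totals, so a few abundant transcripts can shift all other values of a heart.

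Identifiers were matched without version to GENCODE M21 (48144 of 48820). Genes averaging 1 FPKM or more over the 9 hearts were fitted on log2(FPKM + 1), pseudocount 1, with limma 3.58.1 in R 4.3.3 (eBayes with trend), all 3 stages in 1 fit, with Benjamini-Hochberg adjustment over 13618 genes and a threshold of 0.05. Within-heart ratios were compared by exact two-sided permutation tests (scipy 1.17.1, Python 3.11.15). Similar copies were searched with BLAST 2.17.0. Depth was estimated from the steps between low values, of which 83.8% to 86.6% per heart were whole multiples within 0.15 of a fragment. At this depth 3 fragments on a gene of 1 kb give 0.0690 FPKM in the deepest heart. The depth estimate and the limma fit were tested on simulated data.

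The 10 members and the gene lists were chosen with earlier results of these data known. Of the lists, up to 3 genes per direction and comparison with the largest changes were named, if called and without overlap of hearts. Alternatives covered the pseudocount, filters, 4 other scales, moderation, the samples fitted, a covariate for *Xist*, a replicate block, a fold threshold and leaving out each heart. One gene of the lipoprotein list is counted with its list and is not reported here by name.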

Additional observations from a re-analysis of the deposited data

How the results depend on the processing

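Over all alternatives, 589 log2 changes of the 10 genes kept their direction and side of the threshold, 51 lost their call, 10 gained one and 10 reversed. For the ratios, 325 values stayed within 1 SD and 11 moved, all of these with only the 5 hearts with *Xist* at or under 1 FPKM. The causes were not tested. The reversals concerned changes that were not called or, for *Cd36*, called narrowly. At P7d against P1d, *Cd36* was at 0.0459 with quantile normalization, and *Angptl4* was at -0.0799 without P1d heart 2, -0.03 without P1d heart 3 and -0.04 without P7d heart 1 (range over hearts left out -0.08 to 0.33). At P1d against E18.5d, *Vldlr* was at -0.17 with an equal sum, -0.0607 without the airway hearts, -0.04 and -0.0076 without E18.5d hearts 2 and 3, and -0.0771 and -0.05 without P1d hearts 1 and 2 (range -0.08 to 0.13).

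Counts are given as higher, then lower. At P7d against P1d, the 2 and 4 members called became 4 and 0 with an equal sum, 5 and 0 over protein-coding nuclear genes, 3 and 1 by the median of ratios, 4 and 1 by quantiles, 1 and 0 with a covariate for *Xist*, 2 and 1 without the airway hearts, and 0 and 0 both with a log2 change of at least 1 and with only the hearts with *Xist* at or under 1 FPKM. At P1d against E18.5d, the 1 member lower became 0 in the last 2 cases and without the airway hearts. At P7d against E18.5d, the 9 and 1 became 5 and 0 with the *Xist* hearts left out, and lower became 0 with a log2 change of at least 1. Without 1 heart, members called were 8 and 1 at P1d against E18.5d, 1 to 3 and 2 to 4 at P7d against P1d, and 8 to 9 and 1 at P7d against E18.5d.

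The further lists were less stable. With only the hearts with *Xist* at or under 1 FPKM, the lists on lipoproteins and transport had 0 calls in each direction and comparison, and the endothelial regulators had 1 higher at P7d against each other stage and 0 otherwise. With a log2 change of at least 1, lipoprotein genes had 0 and 0, 0 and 1, and 0 and 1 in the order P1d against E18.5d, P7d against P1d and P7d against E18.5d, transport genes 0 and 0, 0 and 1, and 0 and 2, and endothelial regulators 0 and 1, 3 and 0, and 2 and 0. Without the airway hearts, lipoprotein genes had 3 and 0 at P1d against E18.5d, 3 lower at P7d against P1d and 1 and 1 at P7d against E18.5d, transport genes had 1 lower at P1d against E18.5d, and endothelial regulators had 0 higher at P1d against E18.5d, 0 lower at P7d against P1d and 2 and 0 at P7d against E18.5d. Under the 4 other scales, lipoprotein genes lower at P7d against P1d became 3 (from 5), higher at P7d against E18.5d 1 (equal sum) or 4 (quantile), lower there 1 (protein-coding nuclear genes, median of ratios), lower at P1d against E18.5d 2 (equal sum), and higher at P7d against P1d 1 (protein-coding nuclear genes). Transport genes became 1 and 8 at P1d against E18.5d and 3 lower at P7d against P1d with an equal sum, 5 higher at P7d against P1d (protein-coding nuclear genes, quantile) and 4 higher at P7d against E18.5d (those 2 and the median of ratios). Endothelial regulators lower became 0 at P7d against E18.5d on all 4 scales, and 0 at P7d against P1d on 3 of them, without a filter, with a mean of at least 5 FPKM, with the covariate and with only the 2 stages compared. The mean of at least 5 FPKM also left 0 higher at P1d against E18.5d, the covariate left 3 lower lipoprotein and 3 lower transport genes at P7d against P1d, and fitting only the 2 stages gave 1 transport gene higher and 2 endothelial regulators lower at P7d against E18.5d. Without 1 heart, the ranges in the same order of comparisons were 5 to 6, 0 and 1 to 2 higher and 1 to 2, 4 to 5 and 2 to 3 lower for lipoprotein genes, 2 to 3, 2 to 3 and 0 to 1 higher and 2 to 6, 4 to 6 and 5 lower for transport genes, and 1 to 2, 6 to 7 and 3 to 4 higher and 5, 0 to 1 and 0 to 2 lower for endothelial regulators.

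Same-numbered hearts of different stages had correlations of their deviations of -0.05 to 0.11. In 8 of 18 cases a heart correlated best with its own number. These values show no clear pairing by number, and whether equal numbers share a litter or batch was not tested. With a replicate block, *Gpihbp1* was also called higher at P7d against P1d (limma adjusted p = 0.0272), which gave 3 members higher, and 1 transport gene was higher and 2 endothelial regulators were lower at P7d against E18.5d. The block changed no other member's call. With 3 hearts per stage and 25000000 to 43500000 fragments each, genes near 1 FPKM, such as *Lrp8* and *Fabp7*, have the least certain values.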
